A study of Mus musculus with 9 samples.

Results

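The regions described here flank Stk4, Stk3 and Yap1, the 3 genes deleted in this mouse study of the epididymis. They comprise every listed first exon or last exon that starts at 154 to 174 Mb on chromosome 2 (around Stk4), 25 to 45 Mb on chromosome 15 (around Stk3) or 3 to 18 Mb on chromosome 9 (around Yap1). The deleted genes and symbols starting with Wfdc, Spint or Svs were left out. This gave 1121 exon events, 698 first exons and 423 last exons, of 58235 in all. They lay in 335 genes of the 17148 with a value: 210 around Stk4, 70 around Stk3 and 55 around Yap1. A further 86 of the events lay in no annotated gene. At least 1 FPKM (read density scaled to exon length and to library size) in at least 3 libraries was reached by 235 of the 335 genes, 141, 56 and 38 in the same order of regions, and these were tested. The other 100 genes were not tested.

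Poly(A)-selected RNA of the initial segment, the most proximal part of the epididymal duct, was sequenced from C57BL/6 mice at 4 weeks of age. Mice lacking Mst1, Mst2 and Yap together (tKO), mice lacking Mst1 and Mst2 (dKO) and wild-type mice (WT) gave 3 libraries each, so tKO and dKO, per the labels, both lack the 2 kinases. The gene symbols are Stk4 for Mst1, Stk3 for Mst2 and Yap1 for Yap. The labels name neither a Cre driver nor the design of the alleles, and do not say whether the libraries came from separate animals, so p-values measure the spread between these samples. The sources give no read counts, so depth is unknown. First-exon FPKM summed to 231670 to 253235 per library, and Pearson's r across tested genes was 0.940 to 0.959 within groups and 0.906 to 0.951 between groups. Yap1 was at 8.86, 8.68 and 8.33 FPKM in tKO, 26.4, 25.2 and 27.9 FPKM in dKO and 23.2, 25.2 and 26.9 FPKM in WT, and it fell in tKO relative to WT by 1.44 on the log2 scale (limma adjusted p = 0.000238). Stk4 was at 8.72, 8.22 and 9.83 FPKM in tKO, 9.42, 9.13 and 7.15 FPKM in dKO and 9.001, 10.6 and 9.85 FPKM in WT, and Stk3 at 6.68 to 7.08, 6.62 to 8.31 and 6.86 to 8.70 FPKM in the same order. These sums over first or last exons do not show the loss that the labels state (limma adjusted p = 0.713 for Stk4 and 0.612 for Stk3 in tKO versus WT, 0.498 and 0.835 in dKO versus WT), and the labels do not say whether the deleted parts hold these exons, so they check nothing if they lie outside. The 6 markers of initial segment principal cells, Rnase10, Lcn8, Cst8, Adam28, Ros1 and Etv5, summed to 4838 to 5823 FPKM in tKO, 1683 to 2011 FPKM in dKO and 6410 to 9104 FPKM in WT, while the germ cell markers Prm1 and Prm2 had no value in any library. In these bulk samples, fewer cells of a type and less RNA per cell cannot be told apart.

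Stk4 and Stk3 encode kinases of the Hippo pathway, which restrain the transcriptional coactivator encoded by Yap1. Yap acts with TEAD factors, and AP-1 often binds beside them. A targeted allele travels with the DNA around it: a mouse line made in cells of one strain and crossed to another can keep a stretch of the first strain beside the allele, and an inserted cassette or a deletion can alter the nearest transcripts. The comparison by distance addresses whether expression differs more often beside the deleted genes than elsewhere. Distance was measured between the nearest annotated ends of a flanking gene and the deleted gene.

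Promoters of the genes the results turn on are shown first. They are RefSeq sequences on GRCm38.p6, 5′ to 3′ on the gene's own strand, each from 250 bases before the start to 50 bases after it. Capitals mark a TEAD motif (GGAATG) or an AP-1 motif (TGANTCA), searched on both strands. The Yap1 sequence is shown because Gm45494, a long non-coding RNA gene on the other strand, begins inside it: position 17 of the sequence is the annotated start of Gm45494, 234 bases from the annotated start of Yap1.
Yap1, chr9:8004547-8004846, minus strand: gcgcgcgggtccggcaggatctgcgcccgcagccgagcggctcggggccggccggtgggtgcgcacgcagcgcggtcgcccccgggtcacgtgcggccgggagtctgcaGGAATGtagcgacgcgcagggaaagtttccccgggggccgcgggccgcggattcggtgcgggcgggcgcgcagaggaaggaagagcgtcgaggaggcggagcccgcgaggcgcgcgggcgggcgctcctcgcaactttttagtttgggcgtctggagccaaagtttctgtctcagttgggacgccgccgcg
Birc3, chr9:7873121-7873420, minus strand: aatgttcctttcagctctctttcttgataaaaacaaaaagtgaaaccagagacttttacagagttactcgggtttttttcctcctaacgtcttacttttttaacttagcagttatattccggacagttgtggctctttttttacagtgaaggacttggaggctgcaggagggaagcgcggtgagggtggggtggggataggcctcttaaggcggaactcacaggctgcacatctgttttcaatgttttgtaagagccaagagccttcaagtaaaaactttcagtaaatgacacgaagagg
Cfap300, chr9:8042826-8043125, minus strand: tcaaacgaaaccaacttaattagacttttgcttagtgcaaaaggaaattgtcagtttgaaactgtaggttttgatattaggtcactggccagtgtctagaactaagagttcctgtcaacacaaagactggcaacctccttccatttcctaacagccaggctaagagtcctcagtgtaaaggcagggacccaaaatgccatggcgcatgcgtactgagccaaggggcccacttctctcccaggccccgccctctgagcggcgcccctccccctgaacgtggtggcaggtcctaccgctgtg
Mmp7, chr9:7691840-7692139, plus strand: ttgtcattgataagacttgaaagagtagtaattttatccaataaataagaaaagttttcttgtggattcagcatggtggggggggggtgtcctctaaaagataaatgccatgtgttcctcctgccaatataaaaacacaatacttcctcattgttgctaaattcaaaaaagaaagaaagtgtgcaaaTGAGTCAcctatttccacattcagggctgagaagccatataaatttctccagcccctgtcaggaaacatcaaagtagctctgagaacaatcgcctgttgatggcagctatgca
Plcg1, chr2:160731060-160731359, plus strand: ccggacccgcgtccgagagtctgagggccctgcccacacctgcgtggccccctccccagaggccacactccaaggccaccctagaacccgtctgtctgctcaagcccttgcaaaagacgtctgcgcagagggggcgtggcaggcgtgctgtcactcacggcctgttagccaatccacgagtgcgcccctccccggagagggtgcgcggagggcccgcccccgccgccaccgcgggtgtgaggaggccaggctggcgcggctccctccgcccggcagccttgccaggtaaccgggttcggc
The 300-base Yap1 window held 1 TEAD match and 49 CpG dinucleotides, at 74.0% GC. The Mmp7 promoter held 1 AP-1 match, at 39.0% GC. The letters of neither motif were found in the Birc3, Cfap300 and Plcg1 windows. Among all 32851 RefSeq promoters of this length 14.7% held the TEAD letters and 7.81% the AP-1 letters, against 12.3% and 7.33% of 300 promoters of 229 flanking genes. The motifs do not overlap one another, and a match describes letters only.

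Set against WT, dKO changed flanking genes about as often as genes elsewhere. Of the 235 tested flanking genes 9 passed a limma adjusted p under 0.05, with 5 higher and 4 lower in dKO, which is 3.83%, against 3.81% of all 12099 tested genes (1.46% called higher and 2.35% called lower). Around Stk4 6 of 141 were called, around Stk3 2 of 56 and around Yap1, which was not deleted in dKO, 1 of 38. At an unadjusted p under 0.05 the shares were 19.1% around Stk4, 23.2% around Stk3 and 18.4% around Yap1, against 18.5% of all tested genes. The count depended on single libraries: it was 5 without WT replicate 1, 3 without dKO replicate 1 and 1 without any one of WT replicates 2 and 3 and dKO replicates 2 and 3. The share of all genes fell in the same fits, to 0.865% without WT replicate 2, for example, where 0.427% of flanking genes were called.

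Between tKO and WT none of the 235 flanking genes was called by limma, against 0.165% of all tested genes (0.0827% called higher and 0.0827% called lower). At an unadjusted p under 0.05 there were 25 (10.6%), against 13.2% of all tested genes. These were spread unevenly: 10 of 141 around Stk4 (7.09%), 3 of 56 around Stk3 (5.36%) and 12 of 38 around Yap1 (31.6%). Tested genes elsewhere on the same chromosomes had 13.0% for chromosome 2, 10.9% for chromosome 15 and 14.5% for chromosome 9. Around Yap1 the median log2 fold change of tKO over WT was 0.17, against 0.04 for all tested genes, and the median absolute log2 fold change was 0.25, against 0.17. The 31.6% rests in part on tKO replicate 2: without that library it was 15.8%, against 9.36% of all genes tested in the same fit. Without tKO replicate 1 limma called 2 flanking genes in tKO versus WT, Cfap300 and Hnf4a (0.855%, against 1.27% of all genes in that fit).

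Between tKO and dKO, which differ in Yap1, 1 flanking gene was called, Plcg1 (0.426% of 235, against 2.11% of all tested genes, 1.24% called higher and 0.868% called lower). At an unadjusted p under 0.05 there were 29 (12.3%), against 16.7% of all tested genes. Around Yap1 itself there were 6 of 38 (15.8%), so by this measure the genes around Yap1 stood near the background in tKO versus dKO and above it in tKO versus WT. Without tKO replicate 1 there were 3 called flanking genes (1.28%, against 2.66% of all genes in that fit). There were 2 without tKO replicate 3 (0.866%, against 1.24%) and 2 without dKO replicate 1 (0.855%, against 1.05%).

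**Figure D1:**
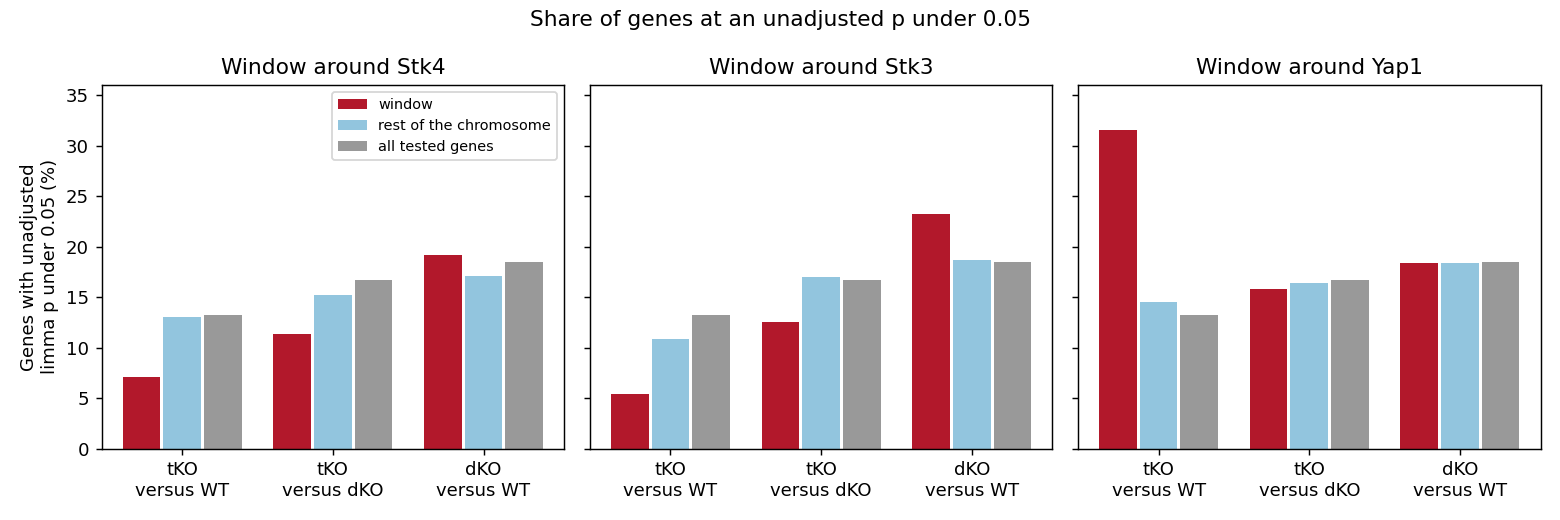
Percentage of tested genes with an unadjusted limma p under 0.05 in the region around each deleted gene (red), on the rest of its chromosome (blue) and among all tested genes (grey), by comparison. The bar around Yap1 in tKO versus WT reaches 31.6%, against 13.2% of all tested genes, and the other bars lie between 5.36% and 23.2%.

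The tested flanking genes were then divided by distance. Within 1 Mb of any deleted gene lay 50 tested genes, of which 2 were called in dKO versus WT (4.00%), none in tKO versus WT and none in tKO versus dKO. These 2 were Mmp7 around Yap1 and Ube2c around Stk4. From 1 to 2 Mb limma called none of 18 genes in any comparison. From 2 to 5 Mb there were 4 of 54 called in dKO versus WT (7.41%) and 1 of 54 in tKO versus dKO (1.85%). From 5 Mb to the farthest member at 9.70 Mb there were 3 of 113 called in dKO versus WT (2.65%) and none in tKO versus dKO. In tKO versus WT no distance class held a called gene, so calls there say nothing about distance. The shares at an unadjusted p under 0.05, with distance increasing over the 4 classes, were 18.0%, 11.1%, 9.26% and 7.96% in tKO versus WT, against 13.2% of all tested genes. Around Stk4 alone, tKO versus WT had 17.2% of 29 genes within 1 Mb and 5.26% of 76 genes beyond 5 Mb. Around Yap1 the classes of that comparison held 3 of 9, 1 of 2, 3 of 6 and 5 of 21 genes. Around Stk3 they held 1 of 12, 1 of 7, 1 of 21 and none of 16. In tKO versus WT the nearest class had the highest share around Stk4, but not around Yap1 or Stk3. With the regions pooled, the shares were 16.0%, 11.1%, 14.8% and 9.73% in tKO versus dKO (16.7% of all tested genes). In dKO versus WT they were 20.0%, 22.2%, 24.1% and 17.7% (18.5%). The nearest pooled class thus had the highest share in tKO versus WT and in tKO versus dKO, but not in dKO versus WT, and these shares were not tested. As a description across genes, which are not independent replicates, Spearman's rho between distance and absolute log2 fold change lay between -0.13 and 0.09 in the 9 pairings of region and comparison, with 141, 56 and 38 genes a region. The median absolute log2 fold change within 1 Mb was 0.20 in dKO versus WT, 0.22 in tKO versus WT and 0.18 in tKO versus dKO, against 0.19, 0.17 and 0.18 over all tested genes.

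**Figure D2:**
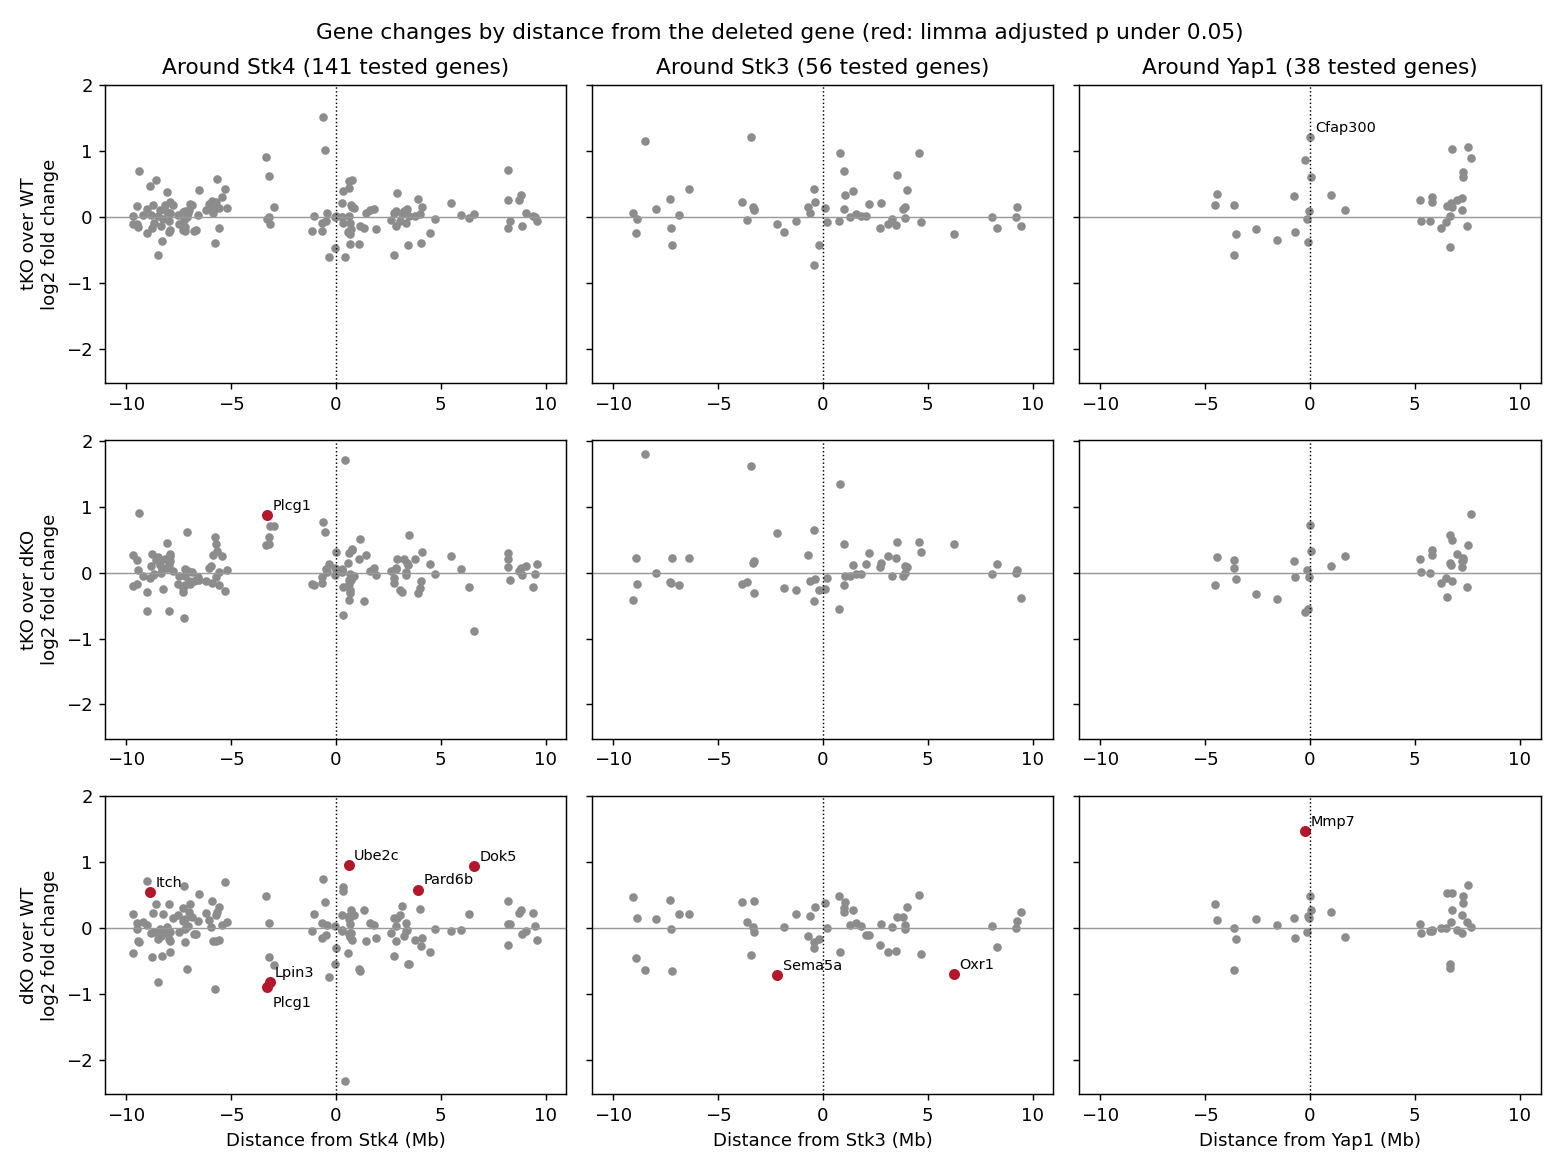
Log2 fold change of each tested flanking gene (vertical axis, on the log2(FPKM + 1) scale) by distance from Stk4, Stk3 or Yap1 in Mb (horizontal axis, dotted line at the deleted gene). Red points are genes at a limma adjusted p under 0.05: none in tKO over WT, Plcg1 in tKO over dKO and 9 genes in dKO over WT, at distances of 0.23 to 8.84 Mb.

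The nearest neighbours were then counted as a set, and some of them are described singly below. Among the 5 nearest tested genes on each side of each deleted gene, and Tomm34, which overlaps Stk4, 31 genes in all, 1 was called in dKO versus WT (Mmp7), none in tKO versus WT and none in tKO versus dKO. At an unadjusted p under 0.05 there were 8 of the 31 in dKO versus WT, 5 in tKO versus WT and 7 in tKO versus dKO, against 18.5%, 13.2% and 16.7% of all tested genes in the same order, the background also for the counts beside Stk4 and Stk3 given later.

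Beside Yap1 the differences of tKO were in single transcripts. Gm45494 (ENSMUSG00000110161, chromosome 9, 8004830 to 8009269, plus strand) is annotated as a bidirectional promoter lncRNA. Its first exon, listed at 8004596 to 8004883, was at 0 FPKM in all 3 tKO libraries, at 1.10, 0.849 and 0.853 FPKM in dKO and at 0.995, 0.613 and 0.577 FPKM in WT. The tKO libraries did not overlap the other 6. The listed exon begins at position 251 of the Yap1 sequence above, the annotated first base of Yap1, and so covers the stretch with the TEAD match. Its last exon was also listed at 0 in tKO, and at 0 in WT replicate 2. Gm45494 did not reach the 1 FPKM filter, so it has no test in the fit used here. With no filter its log2 fold change of tKO over WT was -0.78 (limma adjusted p = 0.0656). Of all 58235 exon events, 6 (0.0103%) were listed at 0 in tKO and at 0.5 FPKM or more in all other libraries, and Gm45494 was the one among the flanking events. This pattern was looked for after values of these data were seen.

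Birc3 (ENSMUSG00000032000, chromosome 9, 7848699 to 7873186, minus strand), an inhibitor of apoptosis 58.8 kb from Yap1, was listed with an internal first exon in tKO. WT replicate 3 listed an internal first exon with nearly the same start, given below. The tKO exon, at 7865895 to 7870103, lies 3083 bases inside the annotated 5′ end, spans 2 annotated Birc3 exons and ends at no annotated splice site. It was listed at 3.90, 3.76 and 4.03 FPKM in tKO and at 0 in all 3 dKO and all 3 WT libraries. The exon passed the filter on low values only through the tKO libraries, where it is high, so its limma calls against WT and dKO are given as a description and support nothing. It was the 1 flanking exon of 510 tested that was called in tKO versus WT (0.196%, against 0.192% of all 25042 tested exons). Without any one tKO library the exon fell below the filter and was not tested. Of all tested exons, 21 (0.0839%) reached 1 FPKM in all 3 tKO libraries and were listed at 0 in the 6 others.

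This exon made up 90.3%, 85.7% and 67.9% of the first-exon FPKM of Birc3 in tKO. First exons at the annotated 5′ end, where the Birc3 sequence above lies, summed to 0.418, 0.626 and 1.90 FPKM in tKO, 6.49, 5.87 and 3.45 FPKM in dKO and 4.83, 6.78 and 0.703 FPKM in WT. WT replicate 3 overlaps tKO there: it listed another internal first exon, 7867741 to 7870087, at 1.95 FPKM, or 73.5% of its Birc3 first-exon FPKM. On the minus strand that exon starts at 7870087, close to the 7870103 of the tKO exon, and the models differ mainly at the other end. An internal start near this position was therefore not confined to tKO. The Birc3 total was 4.31, 4.38 and 5.93 FPKM in tKO, 6.49, 5.87 and 3.45 FPKM in dKO and 4.83, 6.78 and 2.65 FPKM in WT, and the groups overlapped. The exons are the authors' transcript models, so a position here is a modelled start and not a mapped one.

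**Figure D3:**
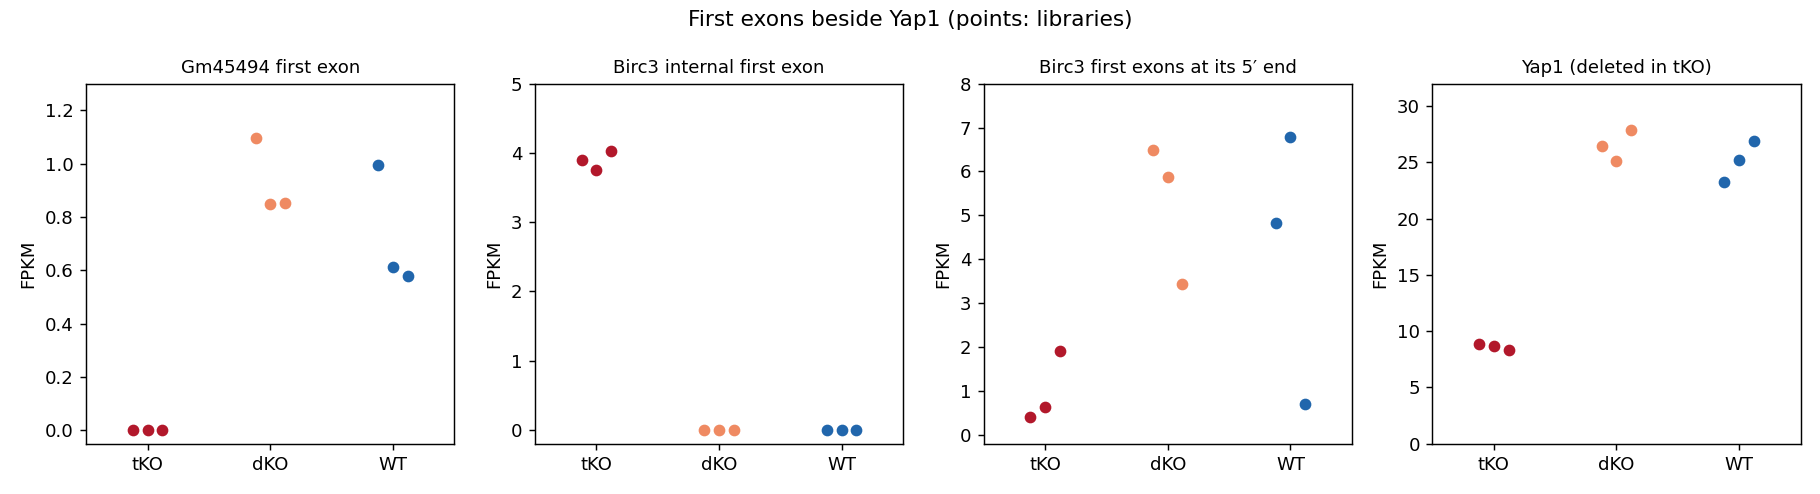
FPKM per library (points, vertical axis) of the first exon of Gm45494, the internal first exon of Birc3, the Birc3 first exons at its 5′ end and Yap1 itself in tKO, dKO and WT. Gm45494 is at 0 in the 3 tKO libraries and the internal Birc3 exon of tKO at 0 in the 6 others, while Yap1 is lower in tKO. The internal Birc3 exon listed in WT replicate 3 is not shown.

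Cfap300, a cilia-associated gene 17.1 kb beyond the start of Yap1, was at 5.46, 9.07 and 9.43 FPKM in tKO, 3.75, 4.02 and 5.34 FPKM in dKO and 2.93, 2.74 and 2.74 FPKM in WT. Every tKO library lay above every dKO library and every dKO library above every WT library, with tKO replicate 1 and dKO replicate 3 close together. The log2 fold change of tKO over WT was 1.21 ± 0.20 (SE), which missed the threshold (limma adjusted p = 0.0623). Without tKO replicate 1 it passed (0.0164), and over the 9 fits that each left out 1 library the adjusted p ran to 0.213. Cep126, a centrosomal gene 71.9 kb from Yap1, was at 4.01, 8.33 and 7.46 FPKM in tKO, 4.93, 4.38 and 5.18 FPKM in dKO and 4.22, 4.41 and 2.93 FPKM in WT, and tKO replicate 1 overlapped the other groups (adjusted p = 0.333 in tKO versus WT).

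Markers of ciliated cells, which line the efferent ducts next to the initial segment, are set beside these values. Foxj1, the defining factor of multiciliated cells, was at 15.2, 35.4 and 29.4 FPKM in tKO, 11.6, 12.5 and 19.7 FPKM in dKO and 12.4, 13.5 and 12.4 FPKM in WT (limma adjusted p = 0.253 in tKO versus WT). Replicates 2 and 3 of tKO were the highest, while tKO replicate 1 lay below dKO replicate 3. Of a list of 12 cilia genes chosen after values were seen, 11 had a value, and they summed to 89.1 to 179 FPKM in tKO, 78.7 to 91.8 FPKM in dKO and 78.5 to 86.5 FPKM in WT. The list is not separate from the flanking genes, since it holds, for example, Dnah5, 6.40 Mb from Stk3. None of the 10 tested was called in tKO versus WT, and 9 had a positive log2 fold change and Ccno a negative one (-0.38). Mcidas, which was not tested, was near 0 in every group: 0, 0.535 and 0 FPKM in tKO, 0.632, 0 and 0.732 FPKM in dKO and 0.122, 0 and 0 FPKM in WT. Their part in the values of Cfap300 and Cep126 was not tested.

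None of the 10 nearest tested genes around Yap1 was called in tKO versus WT or in tKO versus dKO, Cfap300 and Cep126 included. Of all tested genes 0.165% and 2.11% were called in these comparisons. Tmem123, which encodes a membrane receptor and was the highest-expressed gene around Yap1, was at 61.3, 53.8 and 56.4 FPKM in tKO, 54.1, 57.4 and 55.0 FPKM in dKO and 61.9, 56.4 and 55.8 FPKM in WT, and all groups overlapped. Birc2, the paralog of Birc3 94.9 kb from Yap1, was at 7.93, 8.27 and 16.4 FPKM in tKO, 18.0, 13.7 and 15.4 FPKM in dKO and 12.7, 14.7 and 13.7 FPKM in WT. Reads of Birc2 and Birc3 may not be fully separable where the paralogs are alike.

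Mmp7, which encodes the secreted protease matrilysin and lies 232 kb from Yap1, was at 26.1, 41.4 and 47.2 FPKM in tKO, 52.0, 70.0 and 49.6 FPKM in dKO and 29.6, 14.6 and 18.0 FPKM in WT. It rose in dKO, where Yap1 is intact, and no dKO library overlapped WT. The log2 fold change of dKO over WT was 1.47 ± 0.29 (SE), limma adjusted p = 0.0283. The call was lost in 5 of 9 fits, those without WT replicate 2 or 3 or any one dKO library. In tKO the log2 fold change over WT was 0.87 and missed the threshold (adjusted p = 0.273), as did the difference between tKO and dKO (-0.59, adjusted p = 0.343). The AP-1 match is in its promoter above.

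Beside Stk4 limma called none of the 11 nearest tested genes, Tomm34 included, in any comparison, with 4 at an unadjusted p under 0.05 in dKO versus WT, 1 in tKO versus WT and 2 in tKO versus dKO. Ube2c, within 1 Mb of Stk4 but not one of the 11, was called in dKO versus WT and is described below. It was 1 of 29 tested genes at that distance (3.45%, against 3.81% of all tested genes). Among these 11, Ada, 320 kb from Stk4, had the largest absolute log2 fold change in dKO versus WT (0.74) and in tKO versus WT (0.60), without a call. Tomm34, which encodes a protein of mitochondrial import, overlaps the start of Stk4 on the other strand and was at 26.9, 23.8 and 26.7 FPKM in tKO, 21.3, 20.4 and 19.7 FPKM in dKO and 23.7, 26.6 and 26.4 FPKM in WT. The dKO libraries lay below both other groups, but the log2 fold change of -0.30 over WT missed the threshold (adjusted p = 0.115). Ywhab, a 14-3-3 protein gene 51.7 kb away, was at 48.7 to 54.5 FPKM in tKO, 51.2 to 54.2 FPKM in dKO and 51.2 to 53.1 FPKM in WT, and the groups overlapped (log2 fold change 0.03 in dKO over WT).

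Pigt, a gene of GPI anchor transfer 342 kb from Stk4, was at 54.2, 51.8 and 39.5 FPKM in tKO, 65.1, 73.7 and 90.3 FPKM in dKO and 52.9, 49.6 and 50.7 FPKM in WT. The dKO libraries lay above all others, at adjusted p = 0.0847 against WT. Fitm2, which encodes a lipid droplet protein 598 kb from Stk4, was listed at 1.18, 2.69 and 1.92 FPKM in tKO, at 1.51, 0.884 and 0 FPKM in dKO and at 0 in all 3 WT libraries (limma adjusted p = 0.135 in tKO versus WT). It passed the filter on low values only through tKO. Eppin, a protease inhibitor of the epididymis and the sperm surface 433 kb from Stk4, was at 103, 102 and 94.2 FPKM in tKO, 117, 28.5 and 7.24 FPKM in dKO and 150, 140 and 164 FPKM in WT. All 6 knockout libraries lay below the WT libraries, but the spread within dKO was large and the adjusted p was 0.139 in dKO and 0.787 in tKO versus WT.

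Beside Stk3 limma called none of the 10 nearest tested genes in any comparison, with 2 at an unadjusted p under 0.05 in dKO versus WT, 1 in tKO versus WT and 3 in tKO versus dKO. Osr2, a transcription factor gene of urogenital development and the nearest, 117 kb away, was at 10.1, 14.3 and 11.9 FPKM in tKO, 15.8, 12.4 and 15.2 FPKM in dKO and 10.3, 9.80 and 12.4 FPKM in WT, and the groups overlapped. Cox6c, a subunit of cytochrome c oxidase 747 kb away, was at 96.8, 81.1 and 114 FPKM in tKO, 132, 155 and 140 FPKM in dKO and 116, 102 and 85.9 FPKM in WT. Its dKO libraries lay above all others, at adjusted p = 0.125 against WT and 0.111 against tKO. Rgs22, a regulator of G-protein signalling 831 kb away, had the largest log2 fold change among these neighbours in tKO over WT, 0.97 (adjusted p = 0.407).

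Farther out, Plcg1 had the smallest adjusted p of all flanking genes. It encodes phospholipase C gamma 1, which relays signals of receptor tyrosine kinases, and lies 3.29 Mb from Stk4 (chromosome 2, 160731300 to 160775760). It was at 39.2, 35.6 and 35.3 FPKM in tKO, 22.5, 20.5 and 16.2 FPKM in dKO and 36.1, 38.5 and 37.4 FPKM in WT. The dKO libraries lay below all 6 others, and tKO overlapped WT. The log2 fold change was -0.90 ± 0.12 (SE) in dKO over WT (limma adjusted p = 0.00742) and 0.87 ± 0.12 in tKO over dKO (adjusted p = 0.0105). Both calls held in all 9 fits that left out 1 library.

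The neighbouring Lpin3, which encodes a phosphatidate phosphatase 3.16 Mb from Stk4, was at 4.08, 3.59 and 5.13 FPKM in tKO, 2.33, 2.26 and 2.03 FPKM in dKO and 5.10, 3.95 and 4.94 FPKM in WT. It showed the same order, fell in dKO versus WT (log2 fold change -0.82, limma adjusted p = 0.0221) and missed the threshold in tKO versus dKO (0.71, adjusted p = 0.0501). Itch, an E3 ubiquitin ligase gene 8.84 Mb from Stk4, was at 13.04 to 15.7 FPKM in tKO, 15.2, 16.9 and 14.5 FPKM in dKO and 11.3, 9.85 and 9.83 FPKM in WT. Every knockout library lay above every WT library, and it rose in dKO (0.55, limma adjusted p = 0.0328), while tKO versus WT missed the threshold (0.47, adjusted p = 0.149).

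The other 5 called genes were changed in dKO. Of these, Ube2c lay within 1 Mb of Stk4, Pard6b at 2 to 5 Mb and Dok5 beyond 5 Mb. Ube2c, the ubiquitin-conjugating enzyme of the anaphase-promoting complex, was at 14.7, 19.3 and 15.2 FPKM in tKO, 16.7, 22.1 and 29.0 FPKM in dKO and 12.4, 11.7 and 8.88 FPKM in WT, and rose in dKO (0.96, limma adjusted p = 0.0388). Pard6b, a cell polarity gene, rose (0.58, adjusted p = 0.0283) and so did Dok5, an adaptor of receptor tyrosine kinases (0.93, adjusted p = 0.0427). Sema5a, a semaphorin 2.18 Mb from Stk3, fell (-0.71, adjusted p = 0.0406), as did Oxr1, an oxidation resistance gene 6.27 Mb from Stk3 (-0.69, adjusted p = 0.0196). In tKO the levels of Dok5 (1.21 to 1.96 FPKM, against 2.82 to 4.53 in dKO and 0.988 to 1.82 in WT) and of Sema5a (8.01 to 10.03 FPKM, against 4.59 to 6.90 in dKO and 9.10 to 11.5 in WT) overlapped WT. Apart from Plcg1, each gene called in dKO fell short of the threshold in 5 to 8 fits when a single library of the 9 was omitted.

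**Figure D4:**
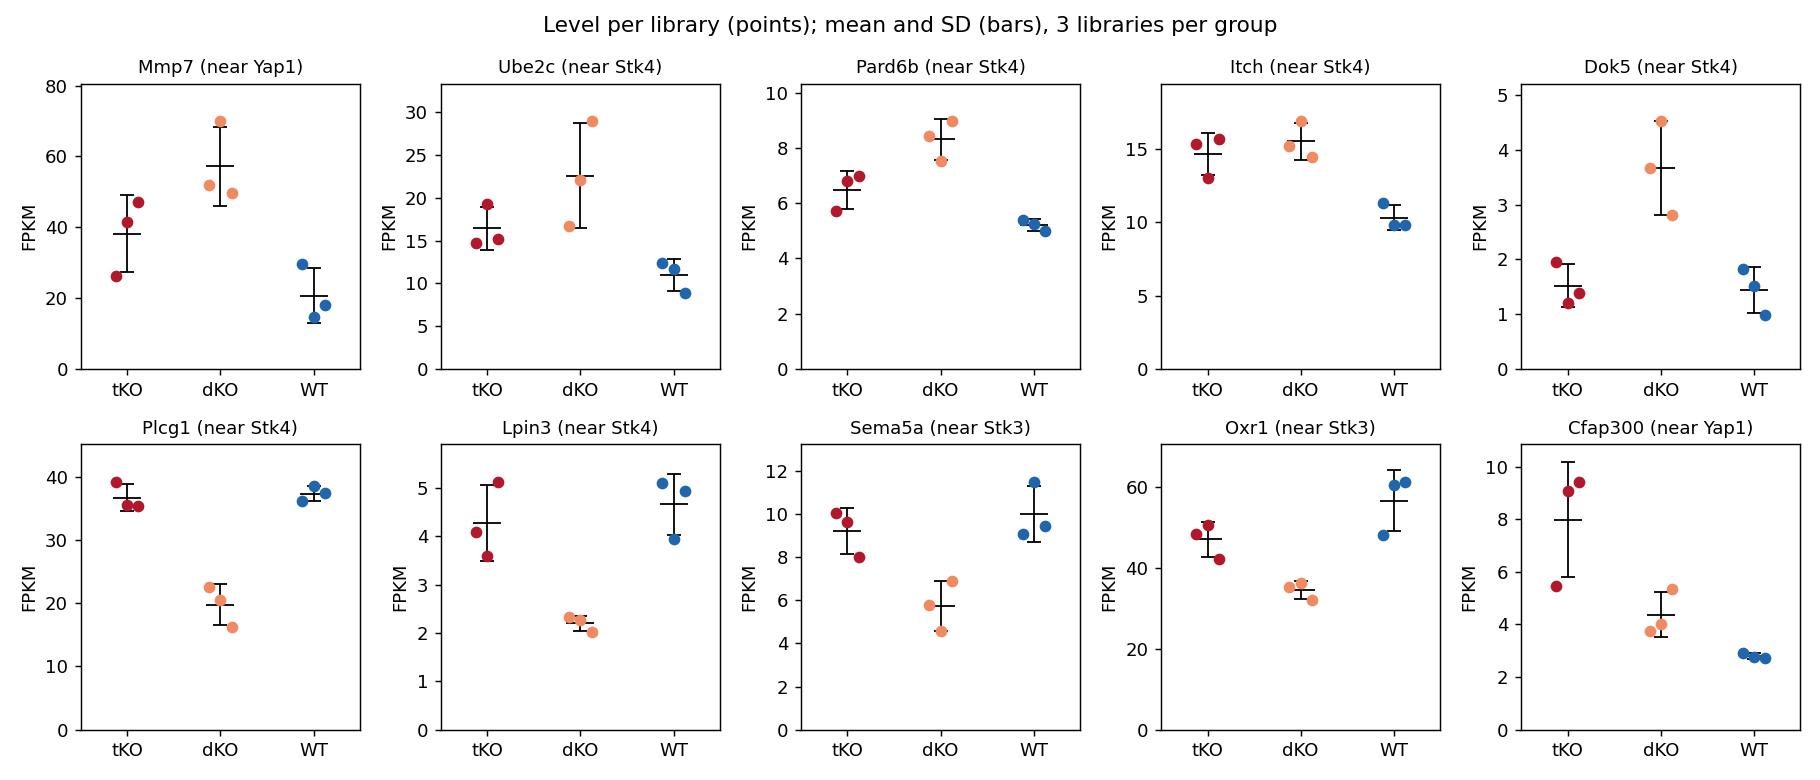
FPKM per library (points) with mean and SD (bars, n = 3) in tKO, dKO and WT for the 9 flanking genes called in dKO versus WT and for Cfap300, each axis starting at 0. Plcg1 in dKO is at 16.2 to 22.5 FPKM, below the 35.3 to 39.2 FPKM of tKO and the 36.1 to 38.5 FPKM of WT.

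Grouped by function, limma called no gene of any list in tKO versus WT, where 1 protease or inhibitor, 2 signalling genes and 3 metabolic and transport genes had an unadjusted p under 0.05. These counts stand against 13.2% of all tested genes. Of 9 tested proteases and inhibitors 1 was called in dKO versus WT (Mmp7), against 3.81% of all tested genes here and in the lists that follow, and the median log2 fold change was 0.16, against 0.03 for all tested genes. Of 18 transcription factors and cofactors none was called by limma. In dKO versus WT 3 of these had an unadjusted p under 0.05 (18.5% of all tested genes), in tKO versus WT 1 and in tKO versus dKO 2 (16.7%). Hnf4a, an epithelial transcription factor 497 kb from Stk4, was at 3.77, 11.1 and 7.69 FPKM in tKO, 4.74, 3.03 and 5.003 FPKM in dKO and 3.42, 2.81 and 2.60 FPKM in WT (adjusted p = 0.242 in tKO versus WT). Of 23 signalling genes 1 was called higher and 2 lower in dKO than in WT, and of 26 metabolic and transport genes 1 was called lower. Among 32 genes of gene expression and the cell cycle, 2 were called higher in dKO versus WT (Ube2c and Itch). In tKO versus WT 10 of the 32 were higher and none lower at an unadjusted p under 0.05, against 13.2% of all tested genes in either direction, with a median log2 fold change of 0.15, against 0.04 for all tested genes. The lists were drawn up with earlier results of these data known.

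No call was made among the highest-expressed flanking genes named here. Pabpc1, the cytoplasmic poly(A)-binding protein 1.42 Mb from Stk3, had the highest mean, 303 FPKM, and was at 311, 341 and 361 FPKM in tKO, 305, 282 and 350 FPKM in dKO and 258, 247 and 267 FPKM in WT. All knockout libraries lay above WT, with adjusted p = 0.208 in tKO and 0.234 in dKO versus WT. Myl9, a myosin light chain of smooth muscle, was at 136 to 195 FPKM in tKO, 174 to 216 FPKM in dKO and 156 to 224 FPKM in WT. Eif3e, a translation initiation factor subunit, was at 57.8 to 66.6 FPKM in tKO, 62.1 to 64.0 FPKM in dKO and 59.9 to 65.3 FPKM in WT.

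The separation of groups was also counted without a test. All 3 tKO libraries lay above or below all 6 others for 9 of 235 flanking genes (3.83%), against 5.27% of all tested genes: 3 of 141 around Stk4, 1 of 56 around Stk3 and 5 of 38 around Yap1. The 5 around Yap1 were Cfap300, Cwf19l2 and Cep57 above and Pdgfd and Sesn3 below. Pdgfd, a platelet-derived growth factor gene 1.55 Mb from Yap1, was at 4.83, 4.41 and 5.13 FPKM in tKO, 6.89, 7.34 and 5.83 FPKM in dKO and 7.21, 6.27 and 5.73 FPKM in WT (adjusted p = 0.305 in tKO versus WT). All 6 knockout libraries lay above or below the 3 WT libraries for 14 of 235 (5.96%), against 7.71% of all tested genes: 10 around Stk4, 3 around Stk3 and 1 around Yap1. These counts were chosen after values were seen.

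At the level of single exons, 10 of 510 tested flanking exons passed the threshold for dKO over WT, 3 of them higher and 7 lower (1.96%, against 2.22% of all tested exons). The count was 0 without any one of WT replicates 2 and 3 and dKO replicates 2 and 3, 2 without dKO replicate 1, 5 without WT replicate 1, 6 without tKO replicate 2 or 3 and 7 without tKO replicate 1. The share of all exons fell in the same fits: it was 0.578% without WT replicate 2, 0.771% without WT replicate 3, 0.784% without dKO replicate 2, 0.643% without dKO replicate 3 and 0.720% without dKO replicate 1. It was 1.85% without WT replicate 1 and 1.63% to 1.91% without a tKO library. In tKO versus dKO 4 were called, all higher in tKO (0.784%, against 1.51%): first exons of Birc3, Sema5a, Pltp and Elmo2. The Birc3 exon is the one that passed the filter only through tKO. The count was 1 to 3 when any one library was left out, while the share of all exons ran from 0.507% to 1.64% in these fits. Without tKO replicate 3 there were 1 higher and 2 lower in tKO (0.611%, against 0.884% of all exons). Without tKO replicate 2 there were 1 higher and 1 lower (0.400%, against 0.528%). The Pltp exon, from a gene of phospholipid transfer 701 kb from Stk4, was at 18.5, 9.75 and 18.2 FPKM in tKO, 4.02, 5.64 and 4.75 FPKM in dKO and 7.64, 12.3 and 11.6 FPKM in WT. Its call (log2 fold change 1.46, limma adjusted p = 0.0422) held in 2 of 9 fits that left out 1 library. Another Pltp first exon, with a higher mean, went the other way without a call (-1.02 in tKO over dKO, limma adjusted p = 0.233). That exon was at 20.6, 28.6 and 9.03 FPKM in tKO, 44.1, 33.8 and 33.3 FPKM in dKO and 40.4, 30.7 and 34.0 FPKM in WT. The Pltp call is thus of a single exon and not of the gene's level. The main first exon of Elmo2, an engulfment gene 1.17 Mb from Stk4, was at 21.8, 20.6 and 19.9 FPKM in tKO, 15.6, 15.5 and 14.3 FPKM in dKO and 19.7, 21.5 and 20.1 FPKM in WT. It was called lower in dKO than in WT (-0.41, adjusted p = 0.0427) and higher in tKO than in dKO (0.43, adjusted p = 0.0424), and in none of the 9 fits that left out 1 library.

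Exons present in one group and absent in another were few. At 1 FPKM or more in all 3 libraries of one group and 0 in all 3 of the other there were 3 flanking exons in tKO versus WT (0.588%, against 0.296% of all tested exons), 1 in tKO versus dKO (0.196%, against 0.288%) and 1 in dKO versus WT (0.196%, against 0.268%). Those of tKO versus WT were the first and last exon of Fitm2 and the internal exon of Birc3, which was also the one of tKO versus dKO. The first and last exon of Fitm2 had the same FPKM in every library, so they do not count as separate observations. The Birc3 and Fitm2 exons passed the filter only through tKO, where they are high, so these counts are a description and support nothing. The one of dKO versus WT was an internal first exon of Tshz2, a transcription factor gene, listed at 3.51, 0 and 0 FPKM in tKO, at 0 in all 3 dKO libraries and at 3.29, 2.36 and 4.43 FPKM in WT. That exon passed the filter only through WT. The total level of Tshz2 was 35.4, 42.2 and 35.7 FPKM in tKO, 32.8, 29.6 and 31.6 FPKM in dKO and 33.7, 29.5 and 34.1 FPKM in WT.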

How the data were processed

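Each library has 1 deposited file of FPKM values per transcript event, per the file headers, in which events at 0 are not listed. Per the submitters' processing notes, bcl2fastq 2.17.1.14 and DESeq were used, with no role stated. Aligner and build: not given in the sources used here. Events were joined across libraries by type and position and placed in GENCODE M21 genes (GRCm38), where 81.5% of first exons and 82.4% of last exons ended at an annotated splice site, or in the named gene within 5000 bases. A gene's value is its first-exon or last-exon sum, whichever is larger in total. Overlapping genes and paralogs may share reads.

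Genes and exons at 1 FPKM or more in 3 or more libraries were fitted with limma 3.58.1 (R 4.3.3), with a mean-variance trend, on log2(FPKM + 1) in 1 model of 9 libraries (6 residual degrees of freedom). P-values were Benjamini-Hochberg adjusted over all 12099 genes or 25042 exons, and calls are at an adjusted p under 0.05. The pseudocount understates changes of low genes. On simulated data with 100 changes of each size, limma recovered 74 of size 1 and 94 of size 2 (log2) in dKO versus WT, with 7 false calls. The changed genes were drawn only from those with a mean log2(FPKM + 1) above 2. Noise was normal, with the spread of each gene. The recovery therefore does not cover genes at lower levels or exons listed at 0 in some libraries. Python 3.11.15 with pandas 2.3.3 was used otherwise.

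A rule set which genes could be named. It took called genes, the 5 nearest tested on each side and the 5 highest-expressed per region. It also took genes with an exon at 0 in one group and at 1 FPKM or more in another, and up to 4 per function list. Not every gene under the rule is described. Gm45494, the cilia genes and genes separating groups were added after values were seen. The regions and lists were chosen with earlier results of these data known. Of the members, 15 genes with 47 exons were left out by the rule. Alternatives covered the pseudocount, filter, normalization, exon class, replicate block and libraries.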

Additional observations from a re-analysis of the deposited data

How the results depend on the processing

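The log2 fold changes of the 9 genes called in dKO versus WT, of Cfap300 and of the Birc3 exon kept their sign under every alternative that gave them a value. The split of calls did turn: genes in dKO versus WT were 5 higher and 4 lower as reported, but 3 and 5 with only the 6 libraries of the comparison, and the 1 called exon of tKO versus WT was a lower one without tKO replicate 3. With those 6 libraries the called share was 3.54% of flanking genes, against 3.78% of all genes. Without tKO replicate 3 it was 0.204% of flanking exons, against 0.176% of all exons. Of the alternative counts of called flanking genes or exons 50 lay within 1.5 times the count reported and 37 did not. Under a pseudocount of 0.1 FPKM tKO versus dKO had 2 called genes (0.851%, against 2.11% of all genes) and tKO versus WT 0 called exons (0.172% of all exons). With no filter tKO versus dKO had 2 called genes (0.597%, against 1.20%). With a filter of 5 FPKM tKO versus WT had 0 called exons (0.108% of all exons). Quantile normalization gave 1 called gene in tKO versus WT, Cfap300 (limma adjusted p = 0.0476), which is 0.426%, against 0.298% of all genes. First-exon sums gave 2 called genes in tKO versus dKO (0.881%, against 1.91%) and last-exon sums 0 (2.41% of all genes). Leaving out each library in turn gave 1 to 9 called genes in dKO versus WT, 0 to 2 in tKO versus WT and 1 to 3 in tKO versus dKO, and 0 to 7, 0 to 3 and 1 to 3 called exons in the same order. The share around Yap1 at an unadjusted p under 0.05 in tKO versus WT ran from 15.8% to 34.2% over the fits that left out 1 library. The lowest was without tKO replicate 2. The share of all genes ran from 9.36% to 16.4% in these fits. The causes were not tested.

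Replicate numbers did not pair the libraries: deviations from group means of same-numbered libraries correlated at -0.11 to 0.01 in 9 pairs, and those of other pairs at -0.08 to 0.12. With the replicate block there were 2 called flanking genes in dKO versus WT, both lower (0.851%, against 1.94% of all genes in that fit). There were 0 called exons in dKO versus WT (0.487% of all exons) and 1 in tKO versus dKO (0.196%, against 0.415%).

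The depth behind the FPKM values is unknown, so a value of 0 has no detection limit.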
